A study of Homo sapiens with 5 samples.

Results

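The genes described here are the nuclear genes of the mitochondrial respiratory chain and ATP synthase with the numbered complex I assembly factors, in HEK293T cells given ascorbic acid and in untreated cells. They were chosen by symbol: names beginning NDUF, UQCR, COX4 to COX8 or ATP5 followed by a subunit code, with at least 20 counts summed over the 5 libraries. Of 91 matching symbols 84 reached that sum, among 28278 genes in the table. They comprise 37 subunit genes of complex I, 9 of complex III, 12 of complex IV, 18 of complex V and 8 assembly factors. The division follows the symbols, so NDUFA4, now regarded as a subunit of complex IV, is counted with complex I. Of the 84 genes 83 were abundant enough to test, and the exception was COX7A1. The 7 matching symbols left out were COX4I2, COX6A2, COX6B2, COX7B2, COX8C, ATP5MGL with 2 counts and the pseudogene UQCRBP1 with 12.

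HEK293T is a transformed human embryonic kidney line that carries the SV40 large T antigen. The tested group was HEK293T cells treated with ascorbic acid (vitamin C), sequenced as 2 libraries. The controls were wild-type HEK293T cells in the same high-glucose medium with serum and antibiotics, sequenced as 3 libraries. Cells were seeded 24 h before treatment, and medium was renewed every 6 h. The protocol gives exposures of 24 and 36 h for different methylation assays. Neither the dose nor the exposure behind these libraries is stated. Nothing says that libraries of a group came from separate cultures, so p-values measure the spread between libraries, which may be technical. Messenger RNA was captured on beads before library preparation.

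Oxidative phosphorylation passes electrons from NADH through complex I, and from succinate through complex II, to ubiquinone, then through complex III and cytochrome c to complex IV, where oxygen is reduced. Protons pumped by complexes I, III and IV return through complex V, the ATP synthase, which makes ATP. Most subunits are encoded in the nucleus and imported, and the remaining core subunits are encoded in mitochondrial DNA. Cultured cells in high glucose obtain much of their ATP from glycolysis. Mitochondrially encoded genes are not analysed here.

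Total counts were 41739602 to 48015766 in ascorbic acid libraries and 35106664 to 57212071 in control libraries. Levels are given as CPM, the reads of a gene relative to the library's total scaled by its TMM factor, and fold changes as log2 of ascorbic acid over control ± SE. A gene was called when its edgeR quasi-likelihood p, adjusted by the Benjamini-Hochberg method over all 15271 tested genes, was under 0.05. The labelled line was checked against markers. The neurofilament-type genes that mark HEK293 lines (NEFM, NEFL and INA) summed to 43.7 and 47.7 CPM in ascorbic acid libraries and to 33.4 to 35.1 CPM in controls. That difference came from NEFM, which was called higher (0.75 ± 0.07, edgeR adjusted p 3.178e-08), while NEFL (-0.07) and INA (0.02) did not pass. The 6 fibroblast genes summed to under 1 CPM in every library, with FAP at 0. Proximal tubule genes, mostly LRP2, summed to 23.9 and 24.1 CPM in ascorbic acid libraries against 30.99 to 32.97 CPM in controls. Because these are bulk libraries, fewer cells of a type and less RNA per cell cannot be told apart.

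No member was higher after ascorbic acid and 6 of 83 were lower (7.23%), where 8.53% of all tested genes were called higher and 5.76% were called lower. The difference between these shares was not tested, and it varied with the libraries. The share of members called lower was 6.02%, against 2.21% of all genes, without control replicate 1. It was 4.82%, against 3.49%, without control replicate 2, and 4.82%, against 5.02%, without control replicate 3. The member median log2 fold change was -0.09 without ascorbic acid replicate 1 and -0.04 without ascorbic acid replicate 2. DESeq2 and limma-voom also called 0 members higher and 6 lower (7.14% and 7.23%). Of the same 15271 genes limma-voom called 5.84% lower and 8.45% higher. DESeq2 was run without the filter on abundance, on 20841 genes and 84 members, and called 4.35% of these genes lower and 3.87% higher. Its shares of all genes are therefore not comparable with those of the other tools. At an unadjusted p under 0.05 edgeR gave 0 members higher, against 15.3% of all tested genes, and 23 lower (27.7%), against 12.7%. Among the 64 members of at least 50 CPM 20 were lower at that unadjusted p (31.2%), against 26.2% of all genes at that level, where 8.14% were higher. The 6 were NDUFAF2 among the assembly factors, NDUFB9 and NDUFA9 of complex I, COX6C of complex IV, and ATP5IF1 and ATP5PB of complex V. Complex III had none by any of these tools, with 1 gene, UQCRHL, at an unadjusted p under 0.05. The other 77 did not pass the test. The median log2 fold change was -0.06 over the members, with a range of -0.33 to 0.22, against 0.00 over all tested genes. Other processing moved the count of lower members between 0, in a test against a fold of 1.2, and 35, with GC and length trends removed without centring each library (42.2%, against 22.8% of all genes).

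Promoters of the called genes are shown because these members passed the threshold of the test. RefSeq windows on GRCh38.p14, running from 250 bases before to 50 bases after the annotated start, were matched for 67 of the 83 tested members and for 4 of the 6 called ones. All 4 genes lie on the plus strand, and the windows are chr5:60944955-60945254 for NDUFAF2, chr1:28235874-28236173 for ATP5IF1, chr1:111449214-111449513 for ATP5PB and chr12:4648864-4649163 for NDUFA9. Capitals mark exact matches, on either strand, to letters searched for 4 factors: NRF1 (GCGC and TGCGC separated by any 1 base), the ETS family, which includes GABP (CCGGAAG), YY1 (AAGATGGC) and SP1 (GGGCGG).
NDUFAF2: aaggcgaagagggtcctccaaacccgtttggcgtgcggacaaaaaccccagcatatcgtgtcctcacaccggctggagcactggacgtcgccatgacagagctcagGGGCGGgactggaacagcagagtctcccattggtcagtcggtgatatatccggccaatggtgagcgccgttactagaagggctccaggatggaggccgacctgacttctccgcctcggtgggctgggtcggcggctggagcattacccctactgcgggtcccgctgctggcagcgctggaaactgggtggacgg
ATP5IF1: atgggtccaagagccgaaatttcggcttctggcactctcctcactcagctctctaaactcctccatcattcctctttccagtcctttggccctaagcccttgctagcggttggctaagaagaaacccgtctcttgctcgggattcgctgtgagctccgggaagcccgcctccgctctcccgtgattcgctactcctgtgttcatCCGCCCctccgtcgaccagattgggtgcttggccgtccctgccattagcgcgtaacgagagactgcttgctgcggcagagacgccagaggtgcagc
ATP5PB: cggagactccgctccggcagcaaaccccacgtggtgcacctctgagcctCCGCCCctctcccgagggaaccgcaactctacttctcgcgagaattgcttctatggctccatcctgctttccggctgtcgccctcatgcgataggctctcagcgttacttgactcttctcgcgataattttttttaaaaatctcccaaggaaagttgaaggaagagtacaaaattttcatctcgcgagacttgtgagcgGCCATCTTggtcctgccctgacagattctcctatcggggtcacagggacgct
NDUFA9: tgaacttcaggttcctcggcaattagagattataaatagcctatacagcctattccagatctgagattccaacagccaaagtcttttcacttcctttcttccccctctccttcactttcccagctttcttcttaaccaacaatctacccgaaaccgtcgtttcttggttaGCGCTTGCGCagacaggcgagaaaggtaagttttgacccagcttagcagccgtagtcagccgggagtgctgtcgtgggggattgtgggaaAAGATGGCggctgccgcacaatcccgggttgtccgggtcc

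NRF1 and GABP are the transcription factors best known for activating nuclear respiratory genes, and YY1 and SP1 also act at many of their promoters. The NDUFAF2 and ATP5IF1 windows each held a single match, to the SP1 letters, read on the minus strand (CCGCCC) in ATP5IF1. The ATP5PB window held the SP1 letters on the minus strand and, over the RefSeq start, the YY1 letters read on the minus strand (GCCATCTT). This window lies inside the gene span of GENCODE release 29, which begins at chr1:111448864. The NDUFA9 window held the NRF1 letters upstream of the start and the YY1 letters just after it. Over the 67 matched members, the NRF1 letters were present in 14 windows (20.9%), against 11% of the windows of 11516 tested genes and 6.28% of all 27305 windows. The YY1 letters were present in 10 (14.9%), against 5.08% of tested genes and 3.03% of all windows. The ETS letters were present in 18 (26.9%), against 18.2% of tested genes and 10.7% of all windows. The SP1 letters were present in 40 (59.7%), against 69.3% of tested genes and 44.6% of all windows. A letter match describes the window and is not a binding site.

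Members with and without these letters had close median fold changes. The median log2 fold change was -0.07 in members with the NRF1 letters and -0.03 in members without them. It was -0.02 in members with the ETS letters and -0.07 in those without, -0.07 and -0.06 with and without the YY1 letters, and -0.06 and -0.04 with and without the SP1 letters. All of these medians lie within a span smaller than the difference between single control libraries described further on. Among the mRNAs of these factors, 3 were read and did not pass the test, and that of SP1 was not read: the log2 fold change was 0.01 for NRF1, 0.04 for GABPA and -0.07 for YY1.

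NDUFAF2 had the largest change among the members. It encodes an assembly factor of complex I, a paralog of the subunit NDUFA12, that is bound to late assembly intermediates and is replaced by NDUFA12 in the finished enzyme. The gene spans chr5:60945129-61153037 (GRCh38, GENCODE release 29). NDUFAF2 had 34.8 and 38.0 CPM in ascorbic acid libraries against 43.7, 45.0 and 48.3 CPM in controls. Every ascorbic acid library was below every control. The mean was 36.4 ± 2.25 CPM in ascorbic acid libraries (SD, n = 2) and 45.7 ± 2.38 CPM in controls (SD, n = 3). Its log2 fold change was -0.33 ± 0.06, with an edgeR adjusted p of 0.00088. It was the single member whose fold exceeded 1.2 in either direction. With each library left out in turn it stayed called, at log2 fold changes of -0.40 to -0.26.

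The other assembly factors did not pass the test. NDUFAF3 and NDUFAF4 are partners that help build the arm of complex I where ubiquinone is reduced. NDUFAF3 had 59.0 and 59.2 CPM in ascorbic acid libraries against 60.2, 67.4 and 73.9 CPM in controls (log2 fold change -0.18 ± 0.06, edgeR adjusted p 0.0573), and NDUFAF4 had 56.0 and 58.2 CPM in ascorbic acid libraries against 52.5, 54.3 and 53.6 CPM in controls (0.10 ± 0.06, edgeR adjusted p 0.272). Both genes had groups that did not overlap, in opposite directions, as did 37.1% (lower) and 12% (higher) of all tested genes of at least 50 CPM. Both stayed short of the threshold. NDUFAF3 passed it under some other settings, among them without control replicate 1 (-0.25, edgeR adjusted p 0.0176) and with DESeq2 size factors (p 0.0437), and NDUFAF4 did with GC and length trends removed and centred (0.15, p 0.0243). NDUFAF3 shares 21.7% of its exonic bases with DALRD3 on the other strand, and the strand setting of the counting is not given in the sources used here. The remaining 5, NDUFAF1, NDUFAF5, NDUFAF6, NDUFAF7 and NDUFAF8, lay between -0.06 and 0.02 in log2 fold change. NDUFAF5 hydroxylates an arginine of NDUFS7. NDUFAF6, which encodes a phytoene synthase-like protein, had a log2 fold change of -0.06 and NDUFAF1, a partner of the membrane arm intermediate, of -0.03.

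**Figure D1:**
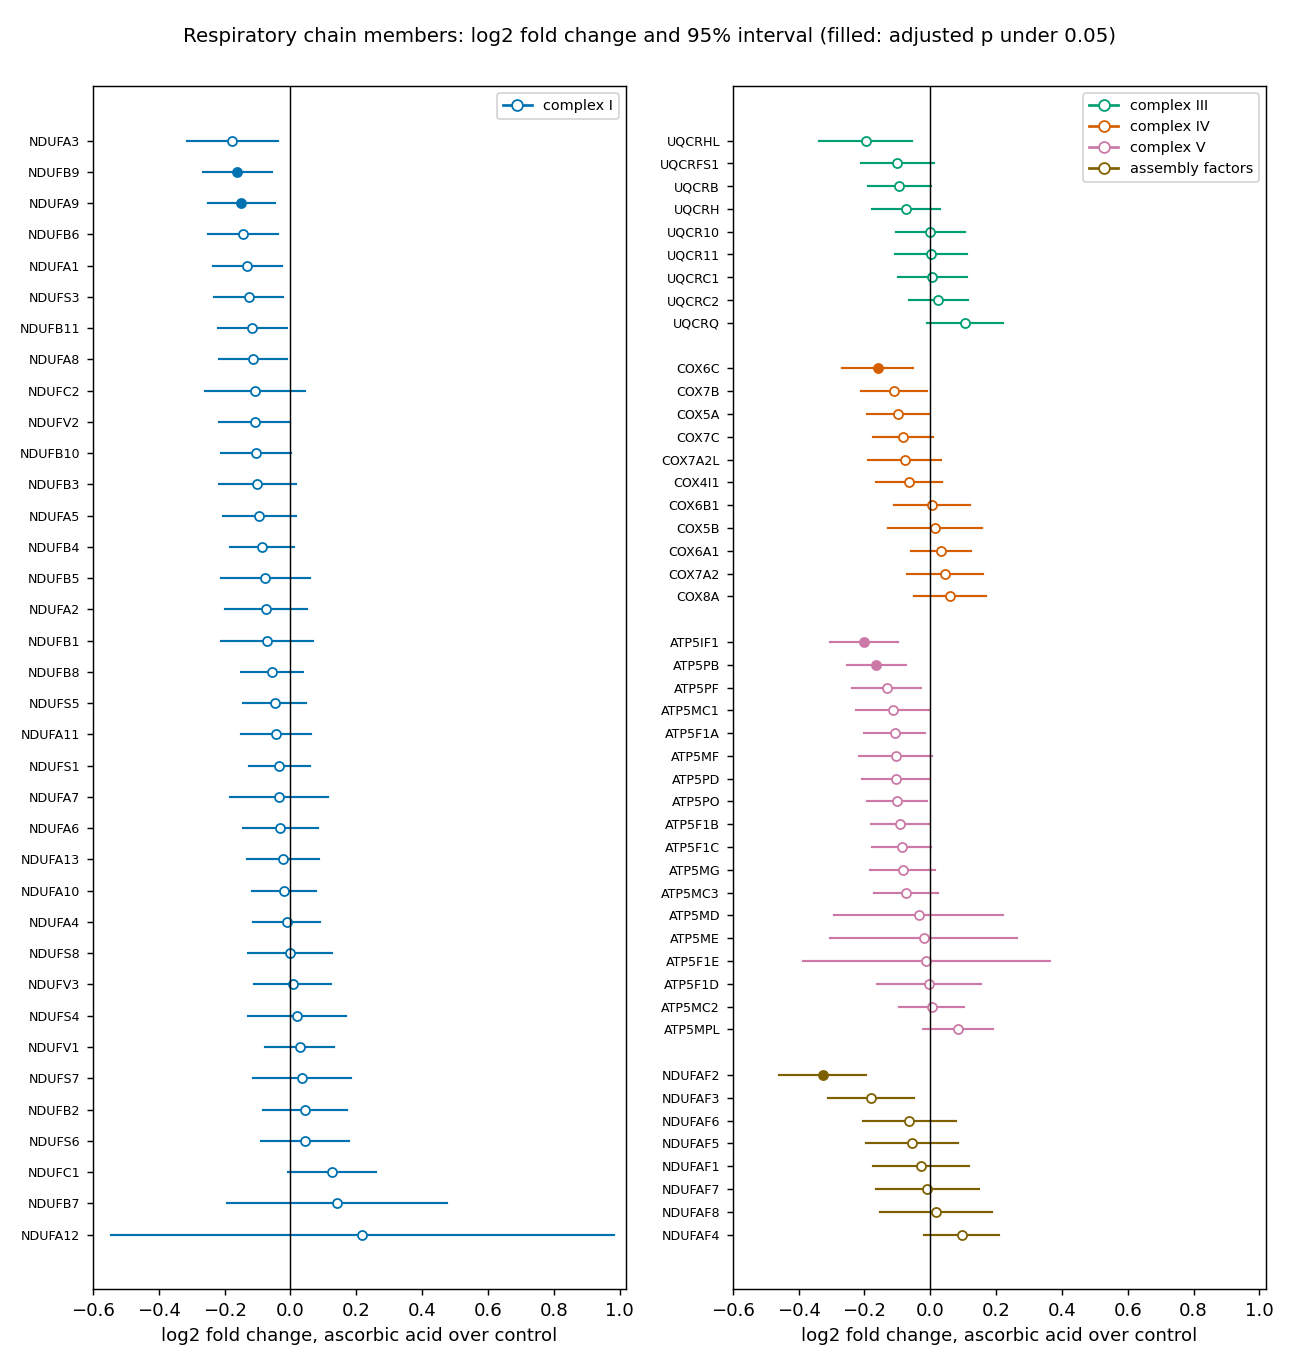
Log2 fold change of 82 tested members (horizontal axis, ascorbic acid over control) with its 95% interval, by complex. Filled points mark the 6 members with an edgeR adjusted p under 0.05, all left of 0, with NDUFAF2 at -0.33 farthest left and NDUFA12 at 0.22 having the widest interval.

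Complex I has core subunits that carry the flavin and the iron-sulfur clusters, and accessory subunits around them. None of the core subunits described here passed the edgeR test. NDUFS1, the largest of them, had 196 and 187 CPM in ascorbic acid libraries against 200, 193 and 196 CPM in controls, a log2 fold change of -0.03. The groups overlapped. NDUFV1, which binds FMN and NADH, had a log2 fold change of 0.03 and its partner NDUFV2 of -0.11 (edgeR adjusted p 0.178). The cluster-bearing NDUFS7 and NDUFS8 had log2 fold changes of 0.04 and -0.00, and NDUFS3 of -0.13 (edgeR adjusted p 0.0971).

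The called subunits of complex I were accessory ones. NDUFB9, a subunit of the distal membrane arm encoded on chromosome 8, had 126 and 116 CPM in ascorbic acid libraries against 133, 130.4 and 143 CPM in controls (-0.16 ± 0.05, edgeR adjusted p 0.0333). NDUFA9 sits beside the quinone site and binds a nucleotide cofactor. NDUFA9, at chr12:4649095-4694317, had 112 and 104 CPM in ascorbic acid libraries against 121, 119 and 119.6 CPM in controls (-0.15 ± 0.05, edgeR adjusted p 0.0403). In both genes each ascorbic acid library was below each control by a gap smaller than the distance between some libraries of a group. Both calls ended when certain single libraries were left out. NDUFB9 fell short without ascorbic acid replicate 2 (-0.11, edgeR adjusted p 0.228), control replicate 1 (p 0.0764) or control replicate 3 (-0.12, p 0.143). NDUFA9 fell short without ascorbic acid replicate 2 (-0.10, edgeR adjusted p 0.24) and without any of control replicates 1 (p 0.139), 2 (p 0.109) and 3 (p 0.0631). Of the exonic bases of NDUFB9, 21% overlap MTSS1 and TATDN1 on the other strand, and 10.6% of those of NDUFA9 overlap 2 clone-named genes on the same strand, so reads there could be assigned to either partner.

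Among the other subunits of complex I, NDUFS5 and NDUFS1 were the most abundant in CPM. NDUFS5 had 193 and 189 CPM in ascorbic acid libraries against 189, 197 and 206 CPM in controls. NDUFA12, the subunit that takes the place of NDUFAF2, had the widest spread of all members. It had 91.1 and 85.6 CPM in ascorbic acid libraries against 83.8, 55.4 and 88.4 CPM in controls, and only control replicate 2 stood apart. Its log2 fold change was 0.22 ± 0.25 (edgeR adjusted p 0.664), and 0.04 without that library (p 0.765). NDUFB7 had 42.9 and 41.7 CPM in ascorbic acid libraries against 31.6, 38.2 and 45.9 CPM in controls, so that the ascorbic acid values lay inside the control range. NDUFA3, NDUFB6 and NDUFA1, accessory subunits that were examined after their values were seen, had log2 fold changes of -0.18 (edgeR adjusted p 0.0794), -0.14 (p 0.0603) and -0.13 (p 0.0827). Over the 37 genes of complex I, 28 had a negative and 9 a positive log2 fold change, with a median of -0.06.

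Complex III passes electrons from ubiquinol to cytochrome c. UQCRC1 and UQCRC2 encode its core proteins, which form the matrix side of the complex. UQCRC1 had 254 and 226 CPM in ascorbic acid libraries against 226, 239 and 252 CPM in controls, and UQCRC2 had 215 and 212 CPM in ascorbic acid libraries against 208, 210.3 and 211 CPM in controls. The UQCRC1 groups overlapped, and the UQCRC2 groups did not although they differed by a log2 fold change of only 0.02. UQCRFS1, the Rieske iron-sulfur protein, gave -0.10 in log2 units (edgeR adjusted p 0.228). UQCRQ, a small subunit near the quinone site, had 69.6 and 64.6 CPM in ascorbic acid libraries against 63.8, 59.7 and 63.6 CPM in controls, with groups apart in the higher direction and an edgeR adjusted p of 0.217. Groups were apart in that direction in 12% of all tested genes of at least 50 CPM.

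UQCRH, the acidic hinge protein that contacts cytochrome c, was the most abundant gene of complex III. UQCRH had 270.2 and 249 CPM in ascorbic acid libraries against 254, 277 and 289 CPM in controls, and its near-identical copy UQCRHL had 34.5 and 33.7 CPM in ascorbic acid libraries against 35.7, 41.3 and 40.6 CPM in controls. Reads of these copies could be split between them, so neither value is certain, and neither passed the test (edgeR adjusted p 0.364 for UQCRH and 0.0518 for UQCRHL). UQCRHL was called lower without control replicate 1 (-0.26, edgeR adjusted p 0.0248), with DESeq2 size factors (p 0.0417), with no filter (p 0.0369) and with GC and length trends removed (p 0.00257, or 0.0376 with centring). Complex III as a whole had 4 negative and 5 positive log2 fold changes, with a median of 0.00.

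Complex IV, cytochrome c oxidase, has a catalytic core encoded in mitochondrial DNA, and the nuclear subunits surround and regulate it. COX6C was the single called gene. COX6C, a small subunit encoded on chromosome 8, had 85.9 and 93.6 CPM in ascorbic acid libraries against 104.2, 98.21 and 97.97 CPM in controls (-0.16 ± 0.05, edgeR adjusted p 0.0403). The groups did not overlap, but the call ended without ascorbic acid replicate 1 (-0.10, edgeR adjusted p 0.318), control replicate 1 (-0.12, p 0.218) or control replicate 2 (-0.17, p 0.0731). COX4I1, a regulatory subunit, had 291 and 273 CPM in ascorbic acid libraries against 291, 280.3 and 314 CPM in controls (-0.06). COX5A and COX5B had log2 fold changes of -0.10 (edgeR adjusted p 0.154) and 0.01.

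Complex IV has subunits with tissue isoforms, and the isoforms of heart, skeletal muscle, lung or testis were near or at 0. COX7C and COX6A1 were the most abundant, with 320.0 and 306 CPM of COX7C in ascorbic acid libraries against 324, 336 and 334.5 CPM in controls. COX6A1, the widely expressed isoform, had 300.4 and 288 CPM in ascorbic acid libraries against 284, 283 and 297 CPM in controls. COX7A1, the heart and muscle isoform, reached exactly 20 counts, with 4 and 1 in ascorbic acid libraries and 10, 5 and 0 in controls. The testis isoform COX6B2 stayed just outside, with 19 counts (4 and 2 in ascorbic acid libraries, 7, 6 and 0 in controls), and COX4I2, COX6A2, COX7B2 and COX8C had 0 counts in every library. The counterparts COX6B1, COX7A2, COX7A2L and COX8A had log2 fold changes of 0.01, 0.04, -0.08 and 0.06. COX7A2L helps complexes III and IV associate in supercomplexes. Muscle genes (MYH7, ACTC1, CKM and MB) summed to 0.350 and 0.187 CPM in ascorbic acid libraries and to at most 0.132 CPM in controls.

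Complex V had the lowest median of the 4 complexes, -0.09, with 16 negative and 2 positive log2 fold changes among 18 genes. ATP5IF1 encodes the inhibitor protein that blocks ATP hydrolysis when the proton gradient collapses. ATP5IF1, at chr1:28236109-28246906, had 105 and 106 CPM in ascorbic acid libraries against 118, 118 and 129 CPM in controls. Both ascorbic acid libraries were below all controls and nearly equal, at 106 ± 0.231 CPM (SD, n = 2) against 121 ± 6.33 CPM in controls (SD, n = 3). The log2 fold change was -0.20 ± 0.05 (edgeR adjusted p 0.0075), and the call held with each library left out, at -0.22 to -0.16.

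ATP5PB encodes subunit b of the peripheral stalk, which holds the catalytic head still against the turning rotor. ATP5PB, at chr1:111448864-111462773, had 381 and 375 CPM in ascorbic acid libraries against 436, 416 and 417 CPM in controls (-0.16 ± 0.04, edgeR adjusted p 0.0117). The groups did not overlap, at 378 ± 4.03 CPM (SD, n = 2) against 423 ± 11.4 CPM (SD, n = 3). Without control replicate 1 the log2 fold change was -0.13 and the call ended (edgeR adjusted p 0.0727), and 10.3% of its exonic bases overlap WDR77 on the other strand. The other peripheral stalk genes, ATP5PD, ATP5PF and ATP5PO, had log2 fold changes of -0.10, -0.13 and -0.10, none of which passed the test (edgeR adjusted p 0.174, 0.0842 and 0.125). Their groups were apart in the lower direction, as were those of 37.1% of all tested genes of at least 50 CPM.

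**Figure D2:**
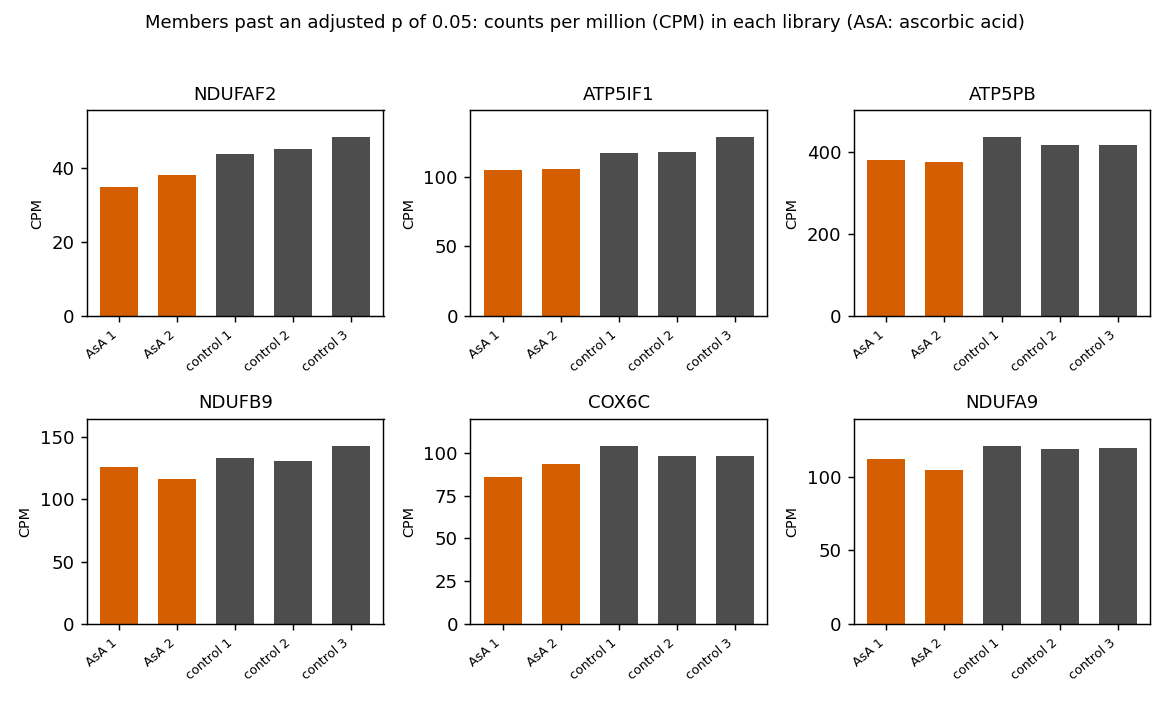
CPM (vertical axis, from 0) in each of the 5 libraries for the 6 called members, with the 2 ascorbic acid libraries (AsA) left of the 3 controls. In every panel both ascorbic acid bars are lower than all control bars, by the widest relative gap in NDUFAF2 (34.8 and 38.0 CPM against 43.7 to 48.3 CPM).

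The catalytic head of complex V gave the highest levels of all members. ATP5F1B, the catalytic beta subunit, had 1077 and 1019 CPM in ascorbic acid libraries against 1131, 1095 and 1122 CPM in controls (-0.09 ± 0.04, edgeR adjusted p 0.179). ATP5F1A, the alpha subunit, had 570.0 and 541 CPM in ascorbic acid libraries against 619, 578 and 599 CPM in controls (-0.11 ± 0.05, edgeR adjusted p 0.11). In both, as in ATP5F1C, the gamma subunit of the rotor, at 262 and 257 CPM in ascorbic acid libraries against 277, 274 and 276 CPM in controls, the groups did not overlap and the test was not passed. Groups were apart in the lower direction in 37.1% of all tested genes of at least 50 CPM. ATP5MC1, ATP5MC2 and ATP5MC3 encode the same mature c subunit of the rotor ring. Per kilobase of transcript the level of ATP5MC3 was highest, at 419 CPM per kb in ascorbic acid libraries and 441 in controls, then ATP5MC2 at 270 and 269, and ATP5MC1 at 176 and 191. That order was the same in both groups and rests on the length of a single annotated transcript per gene. The log2 fold changes were -0.07 for ATP5MC3, 0.00 for ATP5MC2 and -0.11 for ATP5MC1, none past the test.

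Counted levels within complex V differed per length. ATP5F1B stood at 570 CPM per kb in ascorbic acid libraries and 607 in controls, ATP5PB at 557 and 624, and ATP5F1D, the delta subunit, at 34.2 and 34.4. ATP5F1E, the epsilon subunit, was the lowest tested member, with 2.23 and 3.30 CPM in ascorbic acid libraries against 2.63, 2.71 and 3.004 CPM in controls, or 1.47 CPM per kb in ascorbic acid libraries and 1.48 in controls. ATP5PB was below ATP5F1B in ascorbic acid libraries and above it in controls, and the order of the others was the same in both groups. These orders were not tested. They rest on the length of a single annotated transcript per gene (678 bases for ATP5PB, 1839 for ATP5F1B and 1878 for ATP5F1E). With another choice of transcript the order between genes could differ. Read-through genes joining ATP5F1E, NDUFC2 or ATP5MF to a neighbour had 0 counts in all 5 libraries. Of the neighbours, KCTD14 also had 0 counts throughout and PTCD1 had 7 and 5 counts in ascorbic acid libraries against 7, 5 and 11 in controls, while PRELID3B had 4383 and 4409 in ascorbic acid libraries against 5712, 3848 and 3269 in controls. Whether reads shared with a read-through gene were left uncounted was not tested, so the value of ATP5F1E is uncertain, and 23.2% of the exonic bases of ATP5F1E overlap TUBB1 on the other strand. These genes were singled out after their values were seen.

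Summed over the members, the respiratory chain genes gave 11313 and 10775 CPM in ascorbic acid libraries against 11373, 11387 and 11919 CPM in controls, or 1.10 to 1.18% of all counts. The sums of the groups did not overlap, at 11044 ± 380.2 CPM (SD, n = 2) and 11559 ± 311 CPM (SD, n = 3), and their ratio was 0.955. Complex V summed to 4130.3 and 3927 CPM in ascorbic acid libraries against 4282, 4240.3 and 4365 CPM in controls, a ratio of 0.938. The assembly factors summed to 281 and 287 CPM in ascorbic acid libraries against 291, 300.1 and 309.7 CPM in controls, a ratio of 0.945. These were the classes whose sums did not overlap. Complex I (ratio 0.962), complex III (0.978) and complex IV (0.966) overlapped, and complex I summed to 3454 and 3272 CPM in ascorbic acid libraries against 3425, 3424 and 3634 CPM in controls. The sums were not tested, and with 2 libraries against 3 an exact permutation test could not go below a one-sided p of 0.1.

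**Figure D3:**
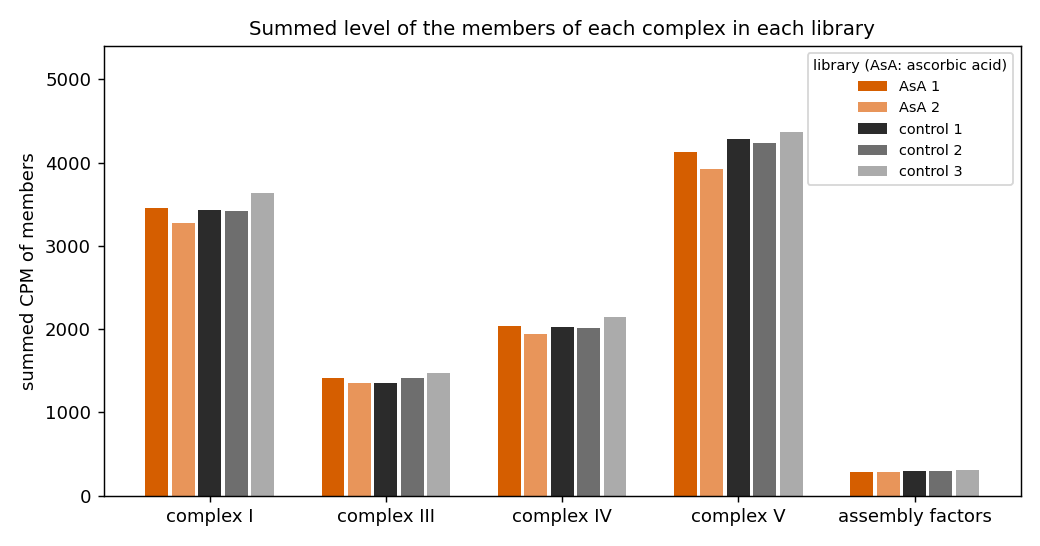
Summed CPM of the members of each complex and of the assembly factors (vertical axis, from 0) in each of the 5 libraries, ascorbic acid (AsA) left of control. Complex V is the tallest class in every library, at 3927 to 4130.3 CPM in ascorbic acid libraries and 4240.3 to 4365 CPM in controls.

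The small negative shift of the members was set beside that of other genes of like level, because most members are abundant. Of the 83 members 64 had a mean of at least 50 CPM, and 5 of these were called lower (7.81%), against 12.6% of the 4707 tested genes at that level, where 4.65% were called higher. The median log2 fold change of those 64 members was -0.08 and that of the 4707 genes -0.05. Among all tested genes the median declined with level, at 0.21 under 1 CPM, 0.12 from 1 to 10 CPM, -0.04 from 50 to 100 CPM and -0.07 at 200 CPM or more. Members at 200 CPM or more numbered 16 and had a median of -0.08, and the 24 members from 50 to 100 CPM also had a median of -0.08. The median of the members thus lay within 0.05 of the median of all genes at each level above 10 CPM. Single members lay farther out, among them NDUFAF2 at -0.33 and NDUFA12 at 0.22. The difference between members and other genes was not tested.

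The share of members whose groups did not overlap in the lower direction was near that of other abundant genes. Over all members, both ascorbic acid libraries were below all controls in 29 of 83 (34.9%) and above all controls in 4 (4.82%), against 20.4% and 22.6% of all tested genes. Among the 64 members of at least 50 CPM they were below in 25 (39.1%) and above in 4 (6.25%), against 37.1% and 12% of all genes at that level. The 4 higher ones were UQCRC2, UQCRQ, ATP5MPL and NDUFAF4. By complex, groups apart in the lower direction made up 12 of 37 genes in complex I, 1 of 9 in complex III, 4 of 11 in complex IV, 9 of 18 in complex V and 3 of 8 assembly factors.

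**Figure D4:**
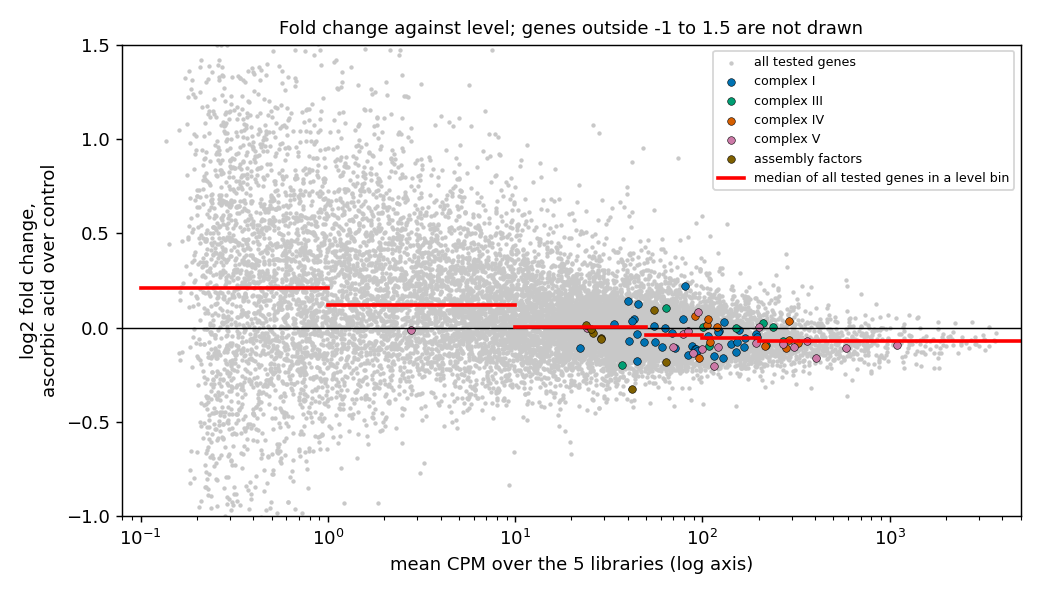
Log2 fold change (ascorbic acid over control, vertical axis) against mean CPM over the 5 libraries (log axis) for all tested genes in grey and members in colour by complex; red lines are medians of all genes in each level bin. The red lines decline from 0.21 under 1 CPM to -0.07 at 200 CPM or more, and most members lie near them.

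The transcripts of these members are short, with a median length of 711 bases against 2220 for all tested genes with an annotated length, and 60 of 83 were under 1000 bases against 15.8% of all. Their median GC content, 49.5%, was near the 49.9% of all genes. Among all 583 tested genes under 1000 bases with at least 50 CPM, the median log2 fold change was -0.06. Over the 83 members the correlation of log2 fold change was 0.181 with GC content, 0.0212 with log2 length and -0.162 with log2 CPM. These are descriptions over genes that share the same 5 libraries. Members were scattered over the genome, and chromosome 19 held the most, with 10, followed by chromosome 2 with 7.

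Control libraries also differed from each other. The ratio of the highest to the lowest control had a median of 1.10 over the members, and in 58 of 83 members the fold between groups was smaller than this ratio. A ratio of single libraries and a fold between group means are unlike measures. The share over all tested genes was not counted. Control replicate 3 was the highest control in 52 members, and control replicate 1 was the lowest in 46. The median log2 difference of control replicate 3 over control replicate 1 was 0.10 in the members, against -0.00 in all tested genes and 0.01 in all genes under 1000 bases with at least 50 CPM. Across the members that difference had a correlation of 0.395 with GC content and -0.371 with log2 length. Between the treated libraries, ascorbic acid replicate 1 was above replicate 2 in 68 of 83 members, by a median of 0.07 on the log2 scale. The part of these library differences in the calls was not tested beyond leaving each library out.

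**Figure D5:**
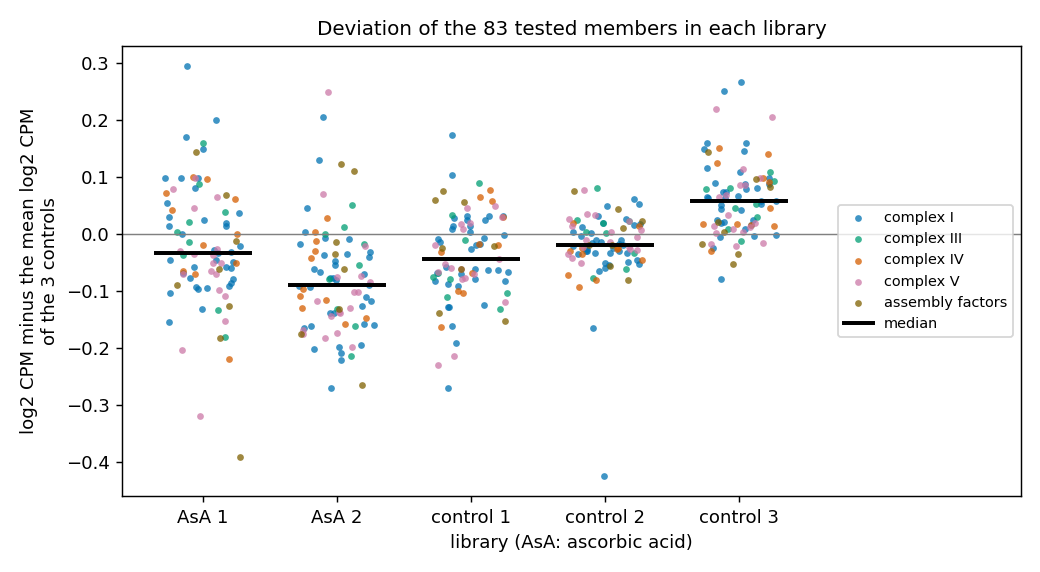
Log2 CPM of each member minus its mean log2 CPM in the 3 controls (vertical axis) in each library, ascorbic acid (AsA) left of control, coloured by complex, with black lines at the medians. The medians are -0.03 and -0.09 in ascorbic acid replicates 1 and 2 and -0.04, -0.02 and 0.06 in control replicates 1, 2 and 3.

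With TMM scaling, the intervals of most members were narrow for the libraries at hand. Separate cultures are not documented, so these intervals do not bound a treatment effect from culture to culture. They also do not cover the choice of processing. The member median log2 fold change was -0.02 with library totals and -0.10 with GC and length trends removed without centring. The SE of the log2 fold change had a median of 0.05, and the 95% interval of the fold lay within 1.2 either way in 71 of 83 members. The 12 others included the called NDUFAF2, ATP5IF1, NDUFB9 and COX6C, the uncalled NDUFA3, NDUFAF3 and UQCRHL with negative values, and NDUFA12, NDUFB7, ATP5F1E, ATP5MD and ATP5ME, whose intervals spanned 0. ATP5MD and ATP5ME, small membrane subunits of complex V, had 77.3 and 78.2 CPM and 86.9 and 79.9 CPM in ascorbic acid libraries, against 67.7, 80.8 and 91.5 CPM and 72.6, 83.9 and 98.03 CPM in controls. Both had ascorbic acid values inside the control range, and 61.6% of the exonic bases of ATP5ME overlap MYL5 on the other strand. The interval reached past a 1.2-fold change in both directions for NDUFA12, ATP5F1E and ATP5ME, in the lower direction for ATP5MD and in the higher direction for NDUFB7.

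Pathway genes that the symbol rule leaves out were read from the same fit. Of 84 tested genes of complex II, electron carriers, other assembly factors and nuclear regulators, 2 were higher and 5 were lower. Of all tested genes, 8.53% were higher and 5.76% lower. The median log2 fold change of the 84 genes was -0.04. Complex II, which oxidises succinate, had 0 edgeR calls among 4 genes (1 lower at an unadjusted p under 0.05, and 0 with DESeq2 or limma-voom) and a median of -0.10, and its most abundant gene SDHC, a membrane anchor, gave -0.12 in log2 units (edgeR adjusted p 0.0958). Of 15 electron carrier genes 0 passed with edgeR or limma-voom, 1 was lower with DESeq2 and 2 were lower at an unadjusted p under 0.05, and cytochrome c (CYCS) had 489 and 497 CPM in ascorbic acid libraries against 550.0, 513 and 507 CPM in controls. Of 16 nuclear regulators 0 passed with edgeR, DESeq2 or limma-voom, and 0 had an unadjusted p under 0.05. They included TFAM, the packaging factor of mitochondrial DNA, at -0.06, and the coactivator PPARGC1A had only about 1.12 CPM.

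The 7 called genes outside the rule were all assembly factors or an acyl carrier. SDHAF4, which helps mature the flavin subunit of complex II, had 13.4 and 13.5 CPM in ascorbic acid libraries against 10.7, 9.26 and 10.7 CPM in controls (0.40 ± 0.09, edgeR adjusted p 0.00514). It was higher in both ascorbic acid libraries than in any control and stayed called with each library left out. ECSIT, a complex I assembly factor, had 54.6 and 51.8 CPM in ascorbic acid libraries against 45.1, 47.8 and 49.1 CPM in controls (0.17 ± 0.06, edgeR adjusted p 0.049), and its call ended without either ascorbic acid replicate (p 0.25 and 0.0587) and without control replicate 1 (p 0.187) or 2 (p 0.0939). SDHAF4 and ECSIT were thus the 2 higher genes.

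The 5 lower genes outside the rule had smaller changes than SDHAF4. NDUFAB1, the mitochondrial acyl carrier protein that is also a complex I subunit, had 78.6 and 68.0 CPM in ascorbic acid libraries against 86.5, 85.1 and 84.7 CPM in controls (-0.22 ± 0.06, edgeR adjusted p 0.0089), and its call ended without ascorbic acid replicate 2 (-0.13, p 0.174) or control replicate 1 (p 0.0597). SCO1, which delivers copper to complex IV, had 88.6 and 85.5 CPM in ascorbic acid libraries against 101, 99.9 and 97.8 CPM in controls (-0.19 ± 0.05, edgeR adjusted p 0.00866; p 0.0569 without control replicate 1). Each library of ascorbic acid was lower than each control for both genes. TMEM70, which assists assembly of the ATP synthase rotor, had 41.2 and 44.4 CPM in ascorbic acid libraries against 51.1, 49.3 and 47.9 CPM in controls (-0.21 ± 0.06, edgeR adjusted p 0.0183; p 0.159 without ascorbic acid replicate 1 and 0.111 without control replicate 1). UQCC1 and TTC19, factors of complex III assembly and maturation, had log2 fold changes of -0.19 ± 0.06 (edgeR adjusted p 0.0309) and -0.17 ± 0.05 (p 0.0305). Without ascorbic acid replicate 2 the calls of UQCC1 (p 0.238) and TTC19 (p 0.189) ended, as they did without control replicate 1 (p 0.191 and 0.116), and that of TTC19 also without control replicate 2 (p 0.0633) or 3 (p 0.0544).

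Mitochondrial ribosomal protein genes, which serve the translation of the mitochondrially encoded subunits, were taken as a set of nuclear mitochondrial genes of like size. Of 77 tested genes 2 were higher and 9 were lower (11.7%), where 8.53% of all tested genes were higher and 5.76% lower. Of tested genes with at least 50 CPM, 4.65% were higher and 12.6% lower. The median log2 fold change of the 77 genes was -0.06. That median was the same, to the second decimal, as that of the respiratory chain members, and the difference between the sets was not tested.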

How the data were processed

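Poly(A) RNA from 5 HEK293T libraries was analysed from the deposited table of whole-number read counts per gene. Per the submitters' processing notes, the authors used Trimmomatic 0.39, STAR, featureCounts and DESeq2 with hg38 (GRCh38); neither the gene models used for counting, nor strand handling, nor the fate of multimapping reads is stated. Columns were matched to samples by name ("vc" read as vitamin C, "con" as control). In each library 71.3 to 75.9% of low counts were even, so both ends of a pair may have been counted, and counting error is then larger than the counts imply.

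Genes were filtered with filterByExpr, scaled with TMM factors (0.984 to 1.025) and compared with edgeR 4.0.16 in R 4.3.3 (robust glmQLFit, glmQLFTest, two-sided, no covariates, Benjamini-Hochberg over 15271 genes). The biological coefficient of variation was 4.6%. Replicate libraries varied beyond counting error (chi-square per degree of freedom 3.96 to 7.27) and were kept separate. In counts simulated from these libraries (15136 genes, with 50 altered per fold size), 64% of genes altered 1.2-fold were found. So were 98% of those altered 1.5-fold and 100% of those altered 2-fold or 3-fold, and 14 calls among 195 were false. Altered genes had at least 5 CPM. The simulated spread was set by level alone, with no GC or length trend between libraries. Recovery and false calls in the real libraries may therefore differ. Positions, lengths (median of coding transcripts), GC content and overlaps came from GENCODE release 29, to which 26216 of 28278 symbols matched, and promoters from RefSeq.

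The members and gene lists were chosen with earlier results of these data known. Named genes were the called members, the 2 most abundant of each class, catalytic subunits, isoform groups, ATP5IF1, genes at the count threshold, and up to 3 called genes of each other list or its most abundant gene. Others were chosen after their values were seen: NDUFA1, NDUFA3, NDUFA12, NDUFB6, NDUFB7, UQCRQ, UQCRHL, ATP5F1D, ATP5F1E, ATP5MD, ATP5ME, ATP5MPL, ATP5PD, ATP5PF, ATP5PO, the uncalled assembly factors below the 2 most abundant, and GABPA, NRF1, TFAM and PPARGC1A. Of the genes so chosen, 1 is left out of the text and figures. The alternatives were DESeq2 1.42.0, limma-voom (limma 3.58.1), other scalings, other filters, halved counts, a test against a fold of 1.2, no robust prior, the replicate number as a block, GC and length trends removed with mgcv 1.9.3, and each library left out.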

Additional observations from a re-analysis of the deposited data

How the results depend on the processing

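Relative to 0 higher and 6 lower members (1303 higher and 879 lower of all genes; 2 higher and 5 lower pathway genes outside the rule), NDUFAF2 and ATP5IF1 stayed called under every alternative except the test against a fold of 1.2, which called 0 members, 0 pathway genes, and 275 higher and 11 lower of all genes. Lower members numbered 3 with library totals (3.61%, against 2.55% of all genes) and with upper-quartile factors (3.61%, against 4.04%). They also numbered 3 with a 5 CPM filter (3.66%, against 5.06%) and with the replicate block (3.61%, against 5.26%). With cyclic loess they numbered 2 (2.41%, against 3.40%), and ATP5PB was lost (-0.09, limma adjusted p 0.138). With the replicate block 1 member was higher (NDUFB7, log2 fold change 0.29, edgeR adjusted p 0.0263), and 1 pathway gene, where 7.05% of all genes were higher. The shared replicate numbers correlated at only 0.0247 and 0.0109, and nothing in the labels pairs them. Removing GC and length trends without centring called 35 lower members (42.2%, against 22.8% of all genes), 23 lower and 1 higher pathway genes, and 3375 lower against 1131 higher of all genes, and UQCRC1 turned to -0.11 (adjusted p 0.046); with centring there were 13 lower (15.7%, against 9.41% of all genes) and 3 higher members (11.3% of all genes were higher), and 1394 lower against 1670 higher of all genes. Whether GC or length trends between libraries have a part in the members' calls was not tested further. Of all genes, 806 were higher with DESeq2, and 389 (against 1712 higher with library totals), 519 (cyclic loess) and 542 (5 CPM filter) were lower. Pathway genes were lower in 2 (library totals) or 3 (upper-quartile, cyclic loess, 5 CPM filter), and 1 was higher with DESeq2, with its size factors and with no robust prior. Leaving out single libraries gave 790 to 1279 higher and 335 to 768 lower of all genes, 0 to 1 higher and 4 to 9 lower members, and 1 to 2 higher and 0 to 5 lower pathway genes. The lowest of these, without control replicate 1, left 335 lower genes (2.21%) and 5 lower members; NDUFB7 was higher without control replicate 3 (0.28, adjusted p 0.0056). The member median was -0.09 without ascorbic acid replicate 1 and -0.04 without ascorbic acid replicate 2. Where 1 ascorbic acid library remained, it was taken to vary as the controls do. The member median stayed between -0.10 and -0.02. At least 1 of 19 alternatives called 39 members, of which 35 were called with GC and length trends removed without centring. That setting called 22.8% of all genes lower. The share of all genes called under at least 1 of the 19 alternatives was not counted. With 2 treated libraries, differences under 1.2-fold are at the limit of this depth and replication.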
